A study of Mus musculus with 16 samples.

Results

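The genes described here were 9 transcription factors and cofactors that act in HSCs, megakaryocytes and red cell precursors: Gata1, Gata2, Zfpm1, Tal1, Lmo2, Ldb1, Klf1, Nfe2 and Runx1. They were chosen by name, and 9 of the 46078 genes in the table of counts carried these names, each on 1 line. Their RNA was measured in 16 samples of mouse bone marrow HSCs sorted by MAC-1, the integrin of the CD11b and CD18 chains, whose alpha chain is encoded by Itgam. HSCs of untreated mice at steady state (SS) gave 3 samples of SS MAC-1- and 3 of SS MAC-1low cells. HSCs taken 4 weeks after 8000 LSK cells had been given to recipients lethally irradiated with 900 cGy gave 3 samples of 4 week MAC-1-, 4 of 4 week MAC-1low and 3 of 4 week MAC-1+ cells. All samples carried the labels B6.SJL and WT, all were gated as LSK CD48- CD150+ cells, and the ages of the mice are not given in the labels. Each sample was the amplified RNA of a small pool of sorted cells. The labels do not say whether replicates came from separate mice, so p-values measure the spread between these samples, which may be technical.

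GATA2 keeps HSCs and early progenitors, while its relative GATA1 is needed for red cells and megakaryocytes, and in the textbook account GATA1 takes the place of GATA2 at shared sites, including those of Gata2 itself. GATA1 needs FOG1, the product of Zfpm1, for many of its targets. TAL1, LMO2 and LDB1 form the core of a complex that joins a GATA factor to E-box binding proteins, in which LMO2 is the bridge and LDB1 holds distant elements together. KLF1 drives globin and other red cell genes, NF-E2, whose hematopoietic subunit is encoded by Nfe2, drives late megakaryocyte and globin genes, and RUNX1 is needed for HSCs to arise and for megakaryocytes to mature.

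The samples held 13781278 to 28580658 counts and 14533 to 17576 detected genes. All 8 HSC markers looked at (Procr, Hlf, Mecom, Slamf1, Kit, Ly6a, Fgd5 and Mllt3) were detected in every population, with a summed level of 746 to 832 CPM (counts scaled to the size of the library) in 4 week MAC-1-, 1486 to 2338 CPM in both SS populations and 4 week MAC-1low, and 2596 to 3801 CPM in 4 week MAC-1+ HSCs. Itgam had 3.80 to 30.0 CPM in 4 week MAC-1+ and at most 4.36 CPM elsewhere. Summed markers of several other cells differed between the sorted populations. The 6 megakaryocyte markers summed to 3995 to 6507 CPM in 4 week MAC-1- and to 133 to 192 CPM in 4 week MAC-1+ HSCs. Most of that sum was Pf4 (3776 to 6366 CPM in 4 week MAC-1-), and Tubb1 was at 0 in both. The 8 neutrophil markers summed to 164, 951 and 7304 CPM in the 4 week MAC-1+ samples against 23.1 to 69.7 CPM in 4 week MAC-1-. The 7 monocyte and macrophage markers summed to 410 to 613 CPM in 4 week MAC-1-, with Ly6c2 and Ccr2 at 0, and to 740 to 862 CPM in 4 week MAC-1+, with Csf1r at 0. The 6 T and NK cell markers summed to 323 to 642 CPM in 4 week MAC-1- and to at most 176 CPM in MAC-1+, with Cd3e, Cd3g, Trbc2 and Ncr1 at 0 in both. Klrb1c was also at 0 in 4 week MAC-1-, so the sum there was Nkg7 alone. The 8 mast cell and basophil markers summed to 85.7, 37.6 and 69.4 CPM in 4 week MAC-1-, with Mcpt8, Ms4a2, Tpsb2 and Hdc at 0. In 4 week MAC-1low they summed to 26.1 to 120 CPM, and in MAC-1+ to 1.61, 0.06 and 39.8 CPM. The 5 B cell markers overlapped, at 6.40 to 33.6 CPM in 4 week MAC-1- and 15.1 to 119 CPM in MAC-1+. The part of these cells in the results below was not tested, and in bulk RNA fewer cells of a type and less RNA per cell cannot be told apart.

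The promoter windows of Gata1, Gata2 and Klf1 are shown because Gata1 and Klf1 were the factors with samples at 0 counts, and Gata2 is the relative that Gata1 was set against. They are the 300 bases from 250 before to 50 after a transcription start, in RefSeq's annotation of GRCm38.p6, 5′ to 3′ on the strand of the gene. Capitals mark a GATA motif (GATA with A or T before it and A or G after it) or a CACCC box in its loose form (CCNCNCCC), each on either strand, where runs of G or C give overlapping matches. Gata1 lies on chrX:7967861-7968160, minus strand, Gata2 on chr6:88193641-88193940 and chr6:88198414-88198713, plus strand, and Klf1 on chr8:84901732-84902031, plus strand.
Gata1: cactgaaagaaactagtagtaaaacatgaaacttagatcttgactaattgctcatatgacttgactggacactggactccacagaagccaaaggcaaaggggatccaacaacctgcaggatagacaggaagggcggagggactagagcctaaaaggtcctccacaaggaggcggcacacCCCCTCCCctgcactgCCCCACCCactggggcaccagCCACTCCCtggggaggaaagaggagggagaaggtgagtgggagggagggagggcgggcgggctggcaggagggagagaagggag
Gata2, upstream window: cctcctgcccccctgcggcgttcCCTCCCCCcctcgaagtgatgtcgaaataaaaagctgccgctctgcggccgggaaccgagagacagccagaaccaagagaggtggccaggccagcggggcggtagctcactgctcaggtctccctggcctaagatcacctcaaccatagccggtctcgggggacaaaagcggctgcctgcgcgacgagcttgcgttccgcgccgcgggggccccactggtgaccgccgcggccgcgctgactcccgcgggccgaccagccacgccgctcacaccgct
Gata2, downstream window: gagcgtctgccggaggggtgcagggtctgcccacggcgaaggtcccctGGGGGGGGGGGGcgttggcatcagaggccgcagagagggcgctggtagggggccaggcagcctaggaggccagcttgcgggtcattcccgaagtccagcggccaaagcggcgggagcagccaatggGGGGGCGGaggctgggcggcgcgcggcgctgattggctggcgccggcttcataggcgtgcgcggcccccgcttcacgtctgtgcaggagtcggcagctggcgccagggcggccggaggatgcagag
Klf1: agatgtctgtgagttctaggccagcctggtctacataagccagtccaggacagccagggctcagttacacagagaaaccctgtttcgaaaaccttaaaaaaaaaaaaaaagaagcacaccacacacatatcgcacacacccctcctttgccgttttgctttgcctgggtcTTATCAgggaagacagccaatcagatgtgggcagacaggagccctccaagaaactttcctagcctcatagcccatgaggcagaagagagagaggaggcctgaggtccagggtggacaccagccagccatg

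The Gata1 window held 3 CACCC boxes, whose first bases were at -71, -55 and -34 from the start, and no GATA motif in these letters. Klf1 held 1 GATA motif in reverse, TTATCA at -80, and no CACCC box. Neither Gata2 window held a GATA motif. RefSeq's table had 12 windows for 7 of the factors (Lmo2 and Nfe2 were not among them). A GATA motif stood in 3 of the 12 windows, those of Klf1, Tal1 and Ldb1, against 29.8% of all 32851 promoter windows, and a CACCC box in 10 of 12 against 49.5%. These matches are a description of the letters and were not tied to any measurement of binding.

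Of the 9 factors, Gata1 had the smallest adjusted p in 4 week MAC-1+ against MAC-1- HSCs, and the MAC-1+ samples held no read of it. Gata1 (ENSMUSG00000031162, X:7959260-7978071 in GRCm38) had 813, 1007 and 0 counts in SS MAC-1-, and 662, 8 and 51 counts in SS MAC-1low HSCs. After transplantation it had 418, 1340 and 690 counts in MAC-1-, and 62, 522, 316 and 126 counts in MAC-1low HSCs. In the 3 samples of 4 week MAC-1+ HSCs it had 0, 0 and 0 counts, at totals of 22461164, 14675234 and 23277130 counts. In all, 4 of the 16 samples held no read of Gata1, 3 of them MAC-1+ and the other an SS MAC-1- sample with 21086753 counts in all. The shallowest sample, SS MAC-1- replicate 1 with 13781278 counts, had 813 counts of Gata1.

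In CPM the levels of Gata1 were 37.5 ± 32.6 (SD, n = 3) in SS MAC-1-, 12.5 ± 19.1 (n = 3) in SS MAC-1low, 39.6 ± 12.4 (n = 3) in 4 week MAC-1-, 12.2 ± 9.69 (n = 4) in 4 week MAC-1low and 0 in 4 week MAC-1+ HSCs. The order of the means was thus 4 week MAC-1-, SS MAC-1-, SS MAC-1low, 4 week MAC-1low and 4 week MAC-1+, and no neighbours in that order differed in the edgeR test (adjusted p of 1 between the first pair, 0.885 and 1 between the next pairs, and 0.535 between the last). With 3 counts taken as the most that a sample at 0 may hide, the mean of the MAC-1+ samples lay at least 264-fold under that of 4 week MAC-1- HSCs. That fall was called, with an edgeR adjusted p of 0.0468, where a call is an adjusted p below 0.1 over the 13661 genes tested. Gata1 was the 1 factor of 9 called in this comparison, in which 3.25% of all genes were called in either direction. Against SS MAC-1- HSCs the bound was 250-fold (adjusted p of 0.0659), again the 1 factor of 9, where 2.36% of all genes were called, but here the sample of SS MAC-1- at 0 counts overlapped the MAC-1+ samples. That call was lost without SS MAC-1- replicate 1 (adjusted p of 0.105), SS MAC-1- replicate 2 (0.103), 4 week MAC-1- replicate 2 (0.101) or any 1 of the MAC-1+ samples (0.152 to 0.164), and with limma-voom (0.230). The call against 4 week MAC-1- HSCs was lost without any 1 of the MAC-1+ samples (adjusted p of 0.122, 0.145 and 0.153) and without 4 week MAC-1- replicate 2 (0.105). The 264-fold bound does not rest on the test, but it covers counting error only. A sample could be at 0 within a population, as SS MAC-1- replicate 3 was, against 59.6 and 52.8 CPM in replicates 1 and 2.

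The other comparisons of Gata1 showed a wide spread within populations. Against 4 week MAC-1low HSCs the bound on the fall in MAC-1+ was 81.3-fold with no overlap of samples, but not called by edgeR (adjusted p of 0.535), and against SS MAC-1low it was 83.7-fold (adjusted p of 0.112). The latter bound rests on SS MAC-1low replicate 1, without which it was 10.3-fold. DESeq2 called both, with adjusted p of 3.34e-05 and 4.5e-05, and over the alternatives to the edgeR fit the adjusted p ran from 3.34e-05 to 0.866 and from 4.5e-05 to 0.403. Nor did the samples overlap in 4 week MAC-1low against MAC-1- HSCs, at 3.80, 24.0, 16.2 and 4.72 CPM against 26.2, 50.8 and 41.7 CPM. The log2 difference there was -1.70 ± 1.57 (SE), with an adjusted p of 1.

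**Figure D1:**
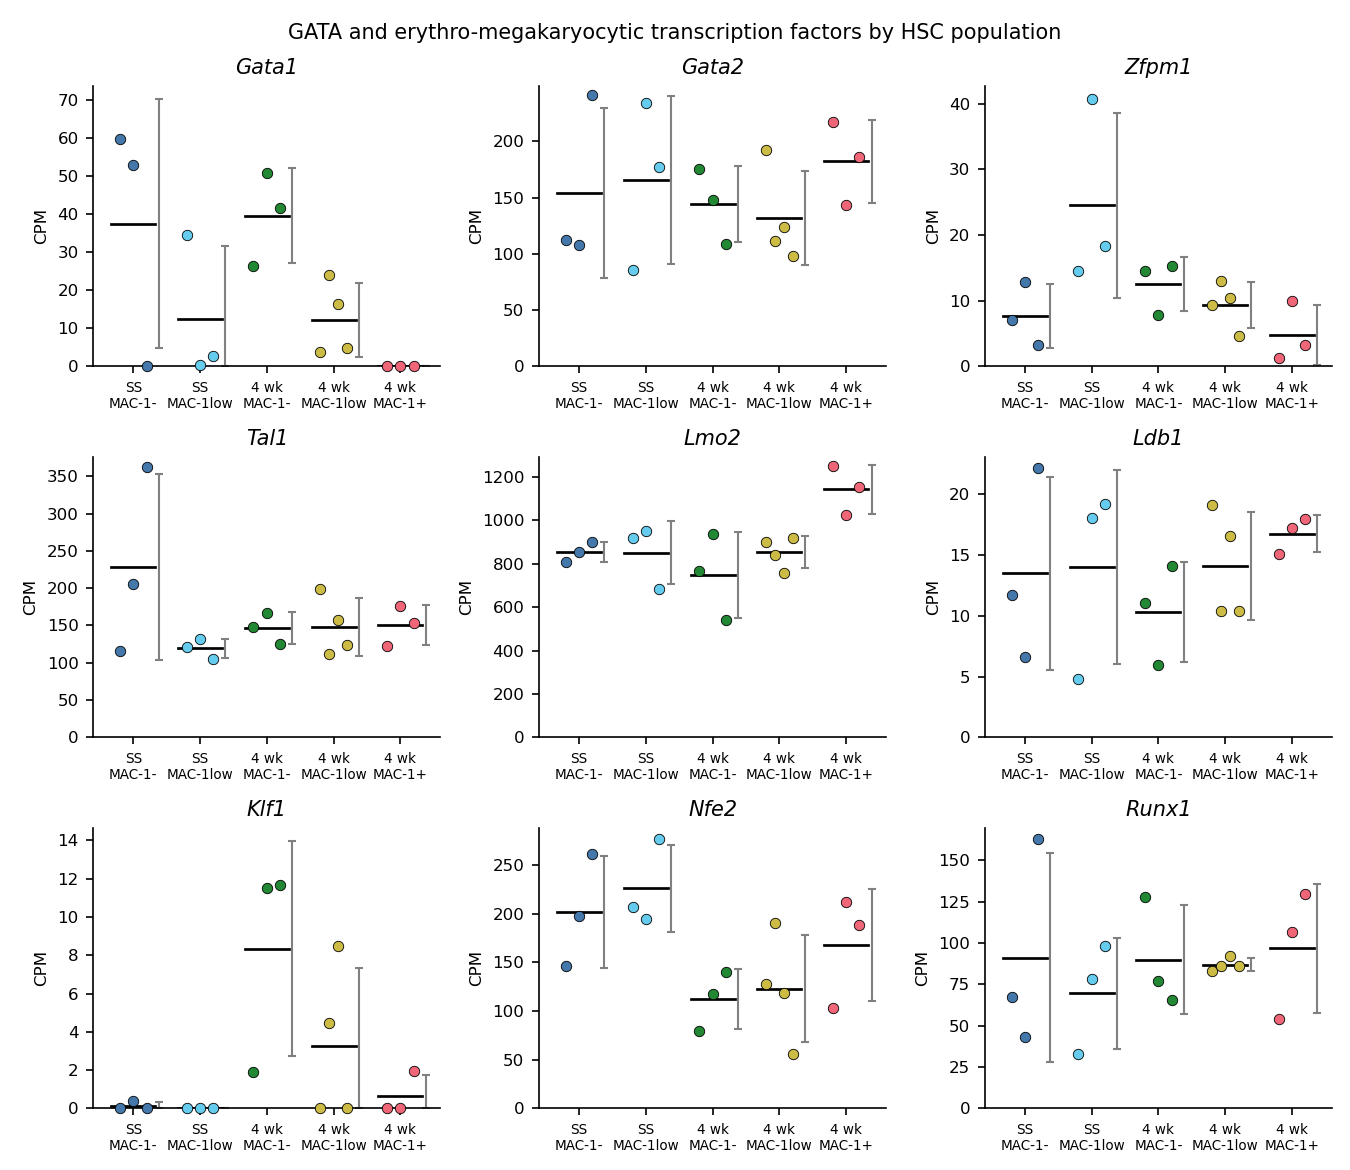
Level in CPM (linear axes from 0) of each factor in every sample, by HSC population (SS, steady state; 4 wk, 4 weeks after transplantation). Points are samples in replicate order, black lines are means and grey bars are SDs, cut at 0; Gata1 is at 0 in the 3 MAC-1+ samples and in 1 SS MAC-1- sample, and Lmo2 is highest in the 3 MAC-1+ samples, at 1024 to 1251 CPM.

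Gata2, in contrast, was present in every sample, and edgeR called no difference of it between populations. Gata2 (ENSMUSG00000015053, 6:88193891-88207032) had 112, 108 and 241 CPM in SS MAC-1-, and 85.7, 234 and 177 CPM in SS MAC-1low HSCs. At 4 weeks it had 176, 148 and 109 CPM in MAC-1-, 192, 111, 124 and 98.4 CPM in MAC-1low, and 217, 144 and 186 CPM in MAC-1+ HSCs. All 5 populations overlapped, and none of the 10 pairs of populations had an edgeR p below 0.05. The mean was highest in 4 week MAC-1+ HSCs, at 182 CPM, and lowest in 4 week MAC-1low, at 131.5 CPM. The log2 difference of 4 week MAC-1+ from MAC-1- was 0.34 ± 0.40 (SE), an interval of -0.46 to 1.13 at 2 SE.

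Set against each other per transcript length (TPM, computed with the exon length of GENCODE M21), Gata1 made up 54.0, 51.9 and 0% of the summed Gata1 and Gata2 level in the SS MAC-1- samples and 47.2, 0.42 and 3.19% in SS MAC-1low. At 4 weeks the share was 24.9, 43.2 and 45.9% in MAC-1-, 4.19, 32.3, 22.5 and 9.60% in MAC-1low, and 0% in each MAC-1+ sample. The level of Gata1 thus came near that of Gata2, or above it, in samples of MAC-1- HSCs and in 1 of SS MAC-1low, and at 4 weeks the 3 samples of MAC-1- HSCs lay above 3 of the 4 MAC-1low samples and all MAC-1+ samples. The samples of SS HSCs with the lowest Gata1 had the highest Gata2: SS MAC-1- replicate 3, with 0 counts of Gata1, had 241 CPM of Gata2, and SS MAC-1low replicate 2, with 8 counts of Gata1, had 234 CPM. Over the 16 samples Pearson's r of log2 CPM between Gata1 and Gata2 was -0.71 and Spearman's rho -0.67. Pearson's r was -0.80 between deviations from the population means. It was -0.78 without 2 samples farthest from the median of Gata1. The 4 samples with no count of Gata1 tie as farthest, so which 2 were left out was arbitrary, and another choice could give another r. This is a description of 36 such relations among 9 factors, and the points share cDNA pools and library depth.

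**Figure D2:**
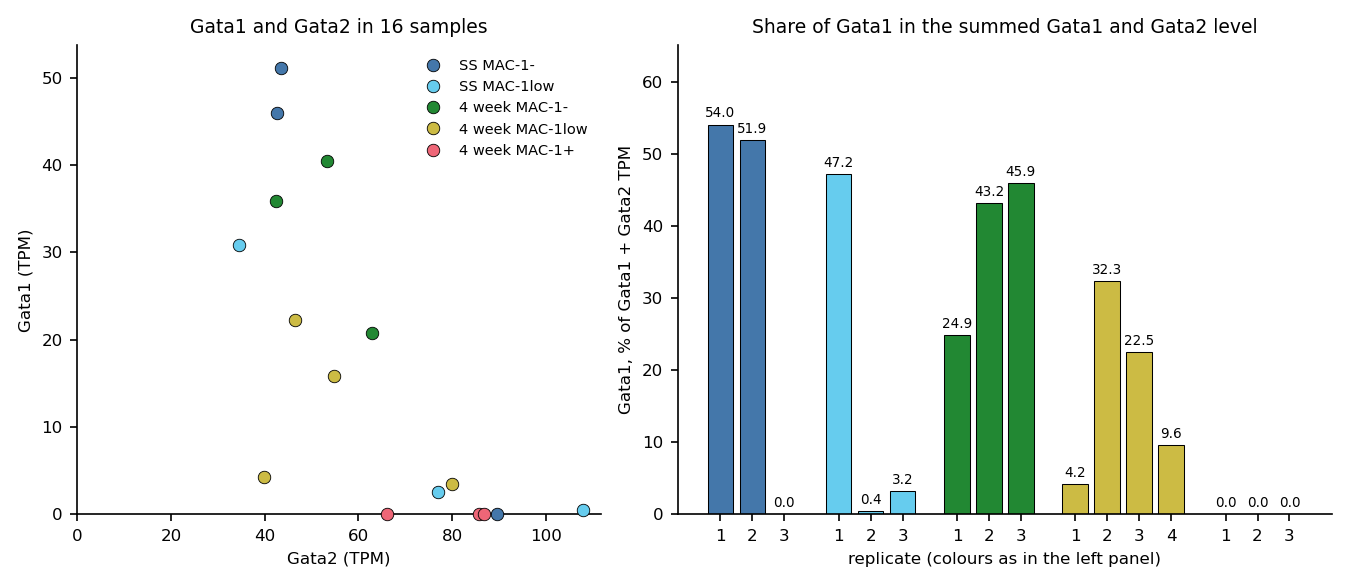
Left, Gata1 against Gata2 in TPM for each of the 16 samples, coloured by population. Right, the share of Gata1 in the summed Gata1 and Gata2 TPM of each sample, which runs from 0% in every 4 week MAC-1+ sample to 54.0% in an SS MAC-1- sample.

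The factors that join GATA proteins in a complex, Tal1, Lmo2 and Ldb1, were counted in every sample, and per length Lmo2 had the highest level, with a median over the samples of 858 TPM against 121.5 TPM for Nfe2, 69.8 for Tal1, 58.9 for Gata2, 15.9 for Runx1, 10.1 for Gata1, 7.08 for Zfpm1, 6.70 for Ldb1 and 0 for Klf1. Lmo2 (ENSMUSG00000032698, 2:103957986-103981878), the bridging LIM protein, had 768, 936 and 543 CPM in 4 week MAC-1-, 900, 840, 756 and 920 CPM in 4 week MAC-1low, and 1251, 1024 and 1153 CPM in 4 week MAC-1+ HSCs. In SS HSCs it had 807, 852 and 899 CPM in MAC-1- and 919, 951 and 683 CPM in MAC-1low. Each MAC-1+ sample was above all 13 others. The log2 difference of 4 week MAC-1+ from MAC-1- was 0.61 ± 0.18 (SE). Its edgeR adjusted p was 0.127, short of a call, while DESeq2 (0.00948) and limma-voom (0.0542) called it, and over the other ways of fitting it ran from 0.00948 to 0.281. Against 4 week MAC-1low, SS MAC-1- and SS MAC-1low the log2 differences were 0.42, 0.42 and 0.43, with edgeR adjusted p of 0.690, 0.325 and 0.376.

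Tal1 (ENSMUSG00000028717, 4:115056426-115071755), the E-box binding partner, had 116, 206 and 363 CPM in SS MAC-1- and 121, 131 and 106 CPM in SS MAC-1low HSCs. At 4 weeks it had 148, 167 and 125 CPM in MAC-1-, 199, 112, 157 and 124 CPM in MAC-1low, and 122, 176 and 153 CPM in MAC-1+. Of its 10 pairs of populations only SS MAC-1low against SS MAC-1- had an unadjusted edgeR p below 0.05 (log2 difference of -0.94 ± 0.34, SE, adjusted p of 0.513), where the 363 CPM of 1 SS MAC-1- sample set the mean and the samples overlapped. Its log2 difference in 4 week MAC-1+ against MAC-1- was 0.04 ± 0.34. Ldb1 (ENSMUSG00000025223, 19:46031570-46045214), which holds the complex at distant elements, was low, at 4.80 to 22.2 CPM over all samples. Its 3 MAC-1+ samples, at 15.1, 17.2 and 18.0 CPM, were above the 4 week MAC-1- samples, at 11.0, 5.91 and 14.1 CPM, and within the range of the other populations, and its adjusted p was 0.809 or above in every pair. Ldb1 shares 177 exonic bases with Pprc1 on the other strand, and the sources used here do not state whether counting used the strand, so reads there cannot be told apart.

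Zfpm1 (ENSMUSG00000049577, 8:122282141-122337251), the gene of the GATA1 cofactor FOG1, was found in every sample but at low and uneven levels. It had 7.04, 12.8 and 3.23 CPM in SS MAC-1- and 14.6, 40.7 and 18.3 CPM in SS MAC-1low HSCs. At 4 weeks it had 14.5, 7.85 and 15.3 CPM in MAC-1-, 9.32, 13.0, 10.4 and 4.68 CPM in MAC-1low, and 1.23, 9.92 and 3.20 CPM in MAC-1+. The SS MAC-1low samples were above every SS MAC-1-, 4 week MAC-1low and 4 week MAC-1+ sample. The log2 difference of 4 week MAC-1+ from SS MAC-1low was -2.36 ± 0.97 (SE), with an edgeR adjusted p of 0.353 and a DESeq2 adjusted p of 0.0260 (0.0260 to 0.697 over the alternatives). MAC-1+ and MAC-1- HSCs at 4 weeks overlapped in Zfpm1, with a log2 difference of -1.39 ± 0.94 and an adjusted p of 0.587, so the cofactor was present where no read of Gata1 was counted.

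Klf1, the red cell factor, was listed at 0 in 9 of 16 samples. Klf1 (ENSMUSG00000054191, 8:84901928-84905291) had 0, 7 and 0 counts in SS MAC-1-, and 0, 0 and 0 in SS MAC-1low HSCs. At 4 weeks it had 30, 304 and 193 counts in MAC-1-, 0, 97, 165 and 0 in MAC-1low, and 0, 0 and 49 in MAC-1+. All 3 samples of 4 week MAC-1- were above all 6 SS samples. Against the SS MAC-1low floor the mean was at least 52.3-fold higher in 4 week MAC-1-, at least 20.3-fold in 4 week MAC-1low and at least 4.05-fold in 4 week MAC-1+ HSCs, with edgeR adjusted p of 0.435, 0.533 and 0.448. The bound for 4 week MAC-1low was 9.30-fold without its replicate 3, and that for MAC-1+ rests on replicate 3 alone, the only MAC-1+ sample with a count. DESeq2 called the first of these (0.0813), and the alternatives to the edgeR fit ran from 0.0813 to 0.504. Over the 16 samples Pearson's r of log2 CPM between Klf1 and Gata1 was 0.45 and Spearman's rho 0.16. Pearson's r was 0.31 between deviations from the population means. It was 0.55 without 2 samples farthest from the median of Gata1, again an arbitrary choice among the 4 tied at 0 counts. Samples with many counts of one gene could lack the other: SS MAC-1- replicates 1 and 2, with 813 and 1007 counts of Gata1, had 0 and 7 counts of Klf1, while 4 week MAC-1+ replicate 3, with 0 counts of Gata1, had 49.

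Nfe2 (ENSMUSG00000058794, 15:103248212-103258403) was higher in SS than in 4 week MAC-1- HSCs in these samples, and higher in SS MAC-1low than in 4 week MAC-1low, but was not called. It had 146, 198 and 261 CPM in SS MAC-1- and 207, 195 and 277 CPM in SS MAC-1low, against 79.7, 118 and 140 CPM in 4 week MAC-1-. The other 4 week samples had 128, 190, 118 and 55.4 CPM in MAC-1low and 103, 212 and 188 CPM in MAC-1+. No SS sample overlapped the 4 week MAC-1- samples. The log2 difference of 4 week MAC-1- was -0.84 ± 0.40 (SE) from SS MAC-1- and -1.01 ± 0.40 from SS MAC-1low, with edgeR adjusted p of 0.481 and 0.448. That of 4 week MAC-1low from SS MAC-1low was -0.88 ± 0.37 (edgeR adjusted p of 0.533), also without overlap, while 4 week MAC-1low overlapped SS MAC-1-. The 4 week MAC-1- HSCs had the lowest mean of Nfe2, at 112 CPM, together with the highest sum of megakaryocyte markers. The mean in 4 week MAC-1low HSCs was near it, at 123 CPM, with a marker sum of 332 to 826 CPM. Runx1 (ENSMUSG00000022952, 16:92601466-92826149) had 32.7 to 163 CPM over all samples. It was at 82.8 to 92.0 CPM in all 4 samples of 4 week MAC-1low, overlapped between all populations, and had an adjusted p of 0.819 or above in every pair.

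Over the 9 factors, then, 0 were called by edgeR in 8 of the 10 pairs of populations. In 4 week MAC-1low against MAC-1- HSCs no factor had an unadjusted edgeR p below 0.05 and none was called by DESeq2 or limma-voom. EdgeR called 0.278% of all genes there, and the shares of genes called that follow are edgeR's too. In 4 week MAC-1+ against MAC-1low 2 factors, Gata1 and Lmo2, had an unadjusted p below 0.05, DESeq2 called 1 and limma-voom 0. There edgeR called 0.0% of all genes, although 936 had an unadjusted p below 0.05 and DESeq2 called 452 genes and limma-voom 1. In SS MAC-1low against SS MAC-1- 1 factor, Tal1, had an unadjusted p below 0.05, against 9.36% of all genes. No tool called a factor there, and 0.0146% of all genes were called.

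In 4 week MAC-1- against SS MAC-1- no factor had an unadjusted p below 0.05 and no tool called one, with 0.432% of all genes called. In 4 week MAC-1low against SS MAC-1low 2 factors, Klf1 and Nfe2, had an unadjusted p below 0.05, against 8.89% of all genes. No tool called one, with 0.0439% called. In 4 week MAC-1- against SS MAC-1low Klf1 and Nfe2 again had an unadjusted p below 0.05, against 9.93% of all genes. DESeq2 called Klf1 there and 913 genes in all, where edgeR called 0.505%. In 4 week MAC-1low against SS MAC-1- the count of factors was 0 at an unadjusted p below 0.05 and by every tool, with 0.19% called. Gata1, Zfpm1 and Lmo2 had an unadjusted p below 0.05 in 4 week MAC-1+ against SS MAC-1low, against 12.1% of all genes. DESeq2 called Gata1 and Zfpm1 there and 1299 genes in all. Limma-voom called none of the factors and 104 genes in all, and edgeR 1.42% of all genes. A test of whether the difference between MAC-1low and MAC-1- was another at 4 weeks than at SS called 0 factors (0 at an unadjusted p below 0.05 and 0 by the other tools) and 0.0586% of all genes. A joint test over the 5 populations called none of them either, with 2.22% of all genes called. In it 2 factors, Gata1 and Lmo2, had an unadjusted p below 0.05, against 13.8% of all genes. DESeq2 called 2 factors in its joint test and 1875 genes in all, and limma-voom 0 factors and 380 genes. Comparisons with a population in common share its samples.

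Of the 9 factors, 3 had 4 week MAC-1+ samples that did not overlap the MAC-1- samples (Gata1 below, Lmo2 and Ldb1 above), against 21.7% of all genes tested. For the other pairs this share of all genes was not counted. Lack of overlap in those pairs, as for Zfpm1, Nfe2 and Klf1, only describes these samples. The median log2 difference of the 9 was 0.10, with 6 above 0, and 0.07 over all genes. With Gata1 at its bound the median was the same.

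**Figure D3:**
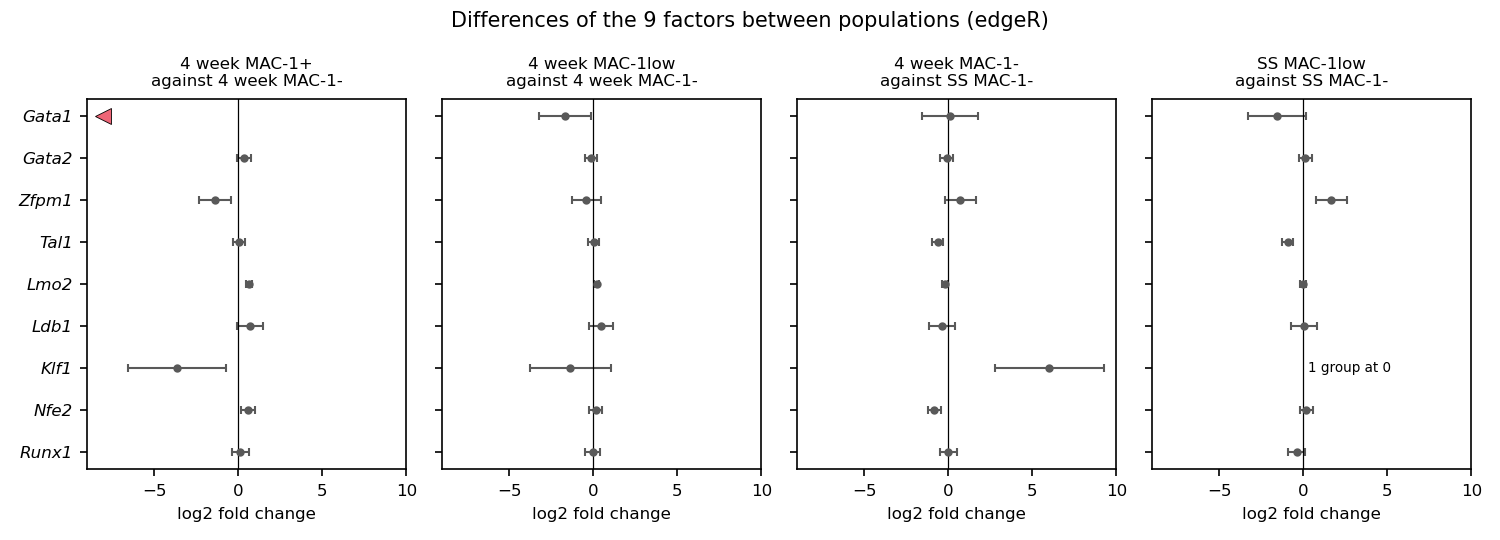
log2 fold change of each factor in 4 comparisons, as edgeR estimates with SE bars; red marks a call (adjusted p below 0.1). The red arrowhead is the bound for Gata1, -8.05 on the log2 scale for a fall of at least 264-fold in MAC-1+ against MAC-1- HSCs at 4 weeks. No estimate is drawn for Klf1 in SS MAC-1low against SS MAC-1-. There the SS MAC-1low samples were at 0 and the SS MAC-1- mean, 0.12 CPM, was under the floor of 3 counts.

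Among themselves the factors fell into different patterns over the 16 samples, described here by Pearson's r of log2 CPM. Ldb1 went with Gata2 (r of 0.68) and with Runx1 (0.68) and against Gata1 (-0.68), and Lmo2 went against Gata1 (-0.63). After the population means were taken out, the r of Gata1 was -0.72 with Ldb1 and -0.73 with Runx1, but -0.15 with Lmo2, whose relation to Gata1 thus lay mostly between populations. Of 8020 genes with a mean of 10 CPM or more, those most like Gata1 were Ntan1 (r of 0.89), Slc22a3 (0.88), Dnajc19 (0.87), Trappc3 (0.86) and Ciapin1 (0.85). Slc22a3, an organic cation transporter, had 26.3, 24.4 and 25.0 CPM in 4 week MAC-1- and 0.05, 1.95 and 2.06 CPM in 4 week MAC-1+ HSCs. Those most like Gata2 were Paip1 (0.78), Fam178a (0.74), Cep44 (0.72), Fam117b (0.72) and Ampd3 (0.72). All of these come from the same 16 libraries. SS MAC-1- replicate 3, with no count of Gata1, also had none of Ciapin1 and 0.82 CPM of Slc22a3. The other SS MAC-1- samples had 28.7 and 31.7 CPM of Slc22a3. Both genes were picked for their likeness to Gata1 in these samples, so low values there follow from the choice. That sample had 17576 detected genes, the highest number of the 16.

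Of 20 partner factors of the GATA complex, its E-box proteins, cofactors and the ETS, RUNX and MAF families that work with it, all 20 were tested. In 4 week MAC-1+ against MAC-1- HSCs, Lyl1 rose and Gfi1b fell, and the list's median log2 difference was 0.39, with 15 of 20 above 0, against 0.07 over all genes. Gfi1b, a repressor that megakaryocytes and red cells need, had 54.9, 108 and 165 CPM in 4 week MAC-1- and 14.3, 15.2 and 17.0 CPM in MAC-1+ (log2 difference of -2.82 ± 0.79, SE, adjusted p of 0.0940), with no overlap. Lyl1, the closest relative of Tal1, had 13.6, 11.6 and 4.47 CPM in 4 week MAC-1- and 27.1, 40.3 and 29.8 CPM in MAC-1+ (1.71 ± 0.49, adjusted p of 0.0969). Lyl1 also fell in 4 week MAC-1- against SS MAC-1- (-2.38, adjusted p of 0.0805) and against SS MAC-1low (-2.43, 0.0640), from 48.5 to 56.6 and 39.9 to 64.9 CPM at SS, without overlap. Lyl1 was thus low in 4 week MAC-1- HSCs while Tal1 there was at 125 to 167 CPM. Klf3, a repressor of the KLF family, was higher in 4 week MAC-1+, at 193, 172 and 185 CPM, than in SS MAC-1low, at 38.9, 26.2 and 43.8 CPM (2.34 ± 0.53, adjusted p of 0.0753). In the pairs with none called, 2 or 3 of the 20 had an unadjusted edgeR p below 0.05, DESeq2 called 0 to 2 and limma-voom 0 or 1. These calls were near the threshold. That of Lyl1 in 4 week MAC-1+ against MAC-1- HSCs was lost in all 16 fits with 1 sample left out (adjusted p of 0.108 to 0.321) and that of Gfi1b in 12 of 16 (up to 0.308), DESeq2 called 6 of the 20 and limma-voom 3, and with these populations alone edgeR called 1. The calls of Lyl1 against SS MAC-1- and SS MAC-1low were lost in 9 and 6 of 16 such fits (up to 0.244 and 0.209), and that of Klf3 in 7 (up to 0.253).

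Of 26 red cell genes 25 were in the table and 15 were tested, and few were called. In 4 week MAC-1+ against MAC-1- HSCs 1 rose and 1 fell, and the median was -0.03. Hbb-bt, an adult beta globin gene, had 11.5, 12.1 and 8.51 CPM in 4 week MAC-1- and 95.6, 90.1 and 69.6 CPM in MAC-1+ (2.99 ± 0.48, SE, adjusted p of 0.00413). It was also higher in MAC-1+ than in SS MAC-1- (2.09, adjusted p of 0.0407) and SS MAC-1low (1.78, 0.0996). Hbb-bt was thus highest in the MAC-1+ samples, where no read of Gata1 was counted. The call against SS MAC-1- was lost without SS MAC-1- replicate 1 (adjusted p of 0.111) or 2 (0.122) or MAC-1+ replicate 1 (0.119) or 2 (0.105), and that against SS MAC-1low in 14 of 16 fits with 1 sample left out (up to 0.321). Hbb-bt shares sequence with Hbb-bs, so its counts are uncertain. Hbb-bs did not rise with it, at means of 4.54 CPM in 4 week MAC-1-, 4.44 in MAC-1+ and 8.63 in SS MAC-1low. The alpha globin genes were low, at means of 0.59 and 3.00 CPM in 4 week MAC-1- and MAC-1+ for Hba-a1, and 0.04 and 0.31 for Hba-a2. None of these other globin genes was called by edgeR. Mfsd2b, a sphingosine-1-phosphate exporter of red cells and platelets, had 45.1, 55.8 and 79.3 CPM in 4 week MAC-1- and 0.14, 1.38 and 0.32 CPM in MAC-1+ (-6.62 ± 1.65, adjusted p of 0.0567). That call was lost without any 1 of these 6 samples (adjusted p of 0.101 to 0.209), although the samples did not overlap. In the other 7 pairs no red cell gene was called by edgeR, with 1 to 4 at an unadjusted p below 0.05, 1 to 4 called by DESeq2 and 0 to 2 by limma-voom. Of 7 red cell precursor markers 6 were in the table. They summed to 8.51 to 28.5 CPM in 4 week MAC-1- and 72.3 to 170 CPM in 4 week MAC-1+, most of it Hbb-bt, and Alas2, the heme enzyme of red cells, was at 0 in every sample of every population.

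Of 22 megakaryocyte genes 19 were tested, and in 4 week MAC-1+ against MAC-1- HSCs 6 fell and 0 rose by edgeR (10 had an unadjusted p below 0.05, and DESeq2 called 10 and limma-voom 9), with a median log2 difference of -3.57 against 0.07 over all genes. Pf4, platelet factor 4, had 6366, 4728 and 3776 CPM in 4 week MAC-1- and 117, 113 and 160 CPM in MAC-1+ (-5.25 ± 0.43, SE, adjusted p of 4.5e-05). Gp1bb, a chain of the von Willebrand factor receptor, had 121, 98.2 and 140 CPM in 4 week MAC-1- and 0 counts in all MAC-1+ samples, at least 799-fold lower (adjusted p of 0.00661). Plek, which encodes pleckstrin (-4.70, adjusted p of 0.00348), and Itga2b, the gene of CD41 (-3.71, 0.0125), also fell. For F2rl2, a protease-activated receptor gene, the 4 week MAC-1- samples held 1120, 2196 and 708 counts against 0, 0 and 4 in those of MAC-1+ (adjusted p of 0.0541). For P2ry1, an ADP receptor gene, they held 3171, 1681 and 1118 counts against 0, 2 and 1 (adjusted p of 0.0712). The calls of F2rl2 and P2ry1 were lost without 4 week MAC-1- replicate 1 or 2 or any MAC-1+ sample (adjusted p of 0.112 to 0.194 and 0.131 to 0.241), and that of P2ry1 also without 4 week MAC-1- replicate 3 (0.127), while those of Pf4, Gp1bb, Plek and Itga2b held in all 16 fits with 1 sample left out. In 4 week MAC-1low against MAC-1- HSCs Pf4 (-3.19, adjusted p of 0.00216) and Plek (-3.62, 0.0277) fell. Gata1 was lower there too (-1.70 ± 1.57, SE), without overlap of samples, but was not called. The call of Plek there was lost without 4 week MAC-1- replicate 1 or 4 week MAC-1low replicate 1, 3 or 4 (adjusted p of 0.102 to 0.123). Against SS HSCs, Pf4 was higher in 4 week MAC-1- (2.71 over SS MAC-1-, adjusted p of 0.00678, and 3.71 over SS MAC-1low, 0.000572). Gata1 differed there by 0.08 ± 1.68 and 1.66 ± 1.72 (SE), too wide a spread to tell whether it changed with Pf4. Pf4 and Gp1bb also fell in 4 week MAC-1+ against each SS population. Against SS MAC-1low these calls were lost in 10 and 5 of 16 fits with 1 sample left out (up to 0.245 and 0.152) and with limma-voom (0.603 and 0.412), and with the populations alone edgeR called 0 megakaryocyte genes. Against SS MAC-1- that of Pf4 was lost with limma-voom (0.266) and that of Gp1bb with the populations alone (0.146). In the other 4 pairs no megakaryocyte gene was called by edgeR, with 1 to 4 at an unadjusted p below 0.05, 0 to 4 called by DESeq2 and 0 by limma-voom.

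**Figure D4:**
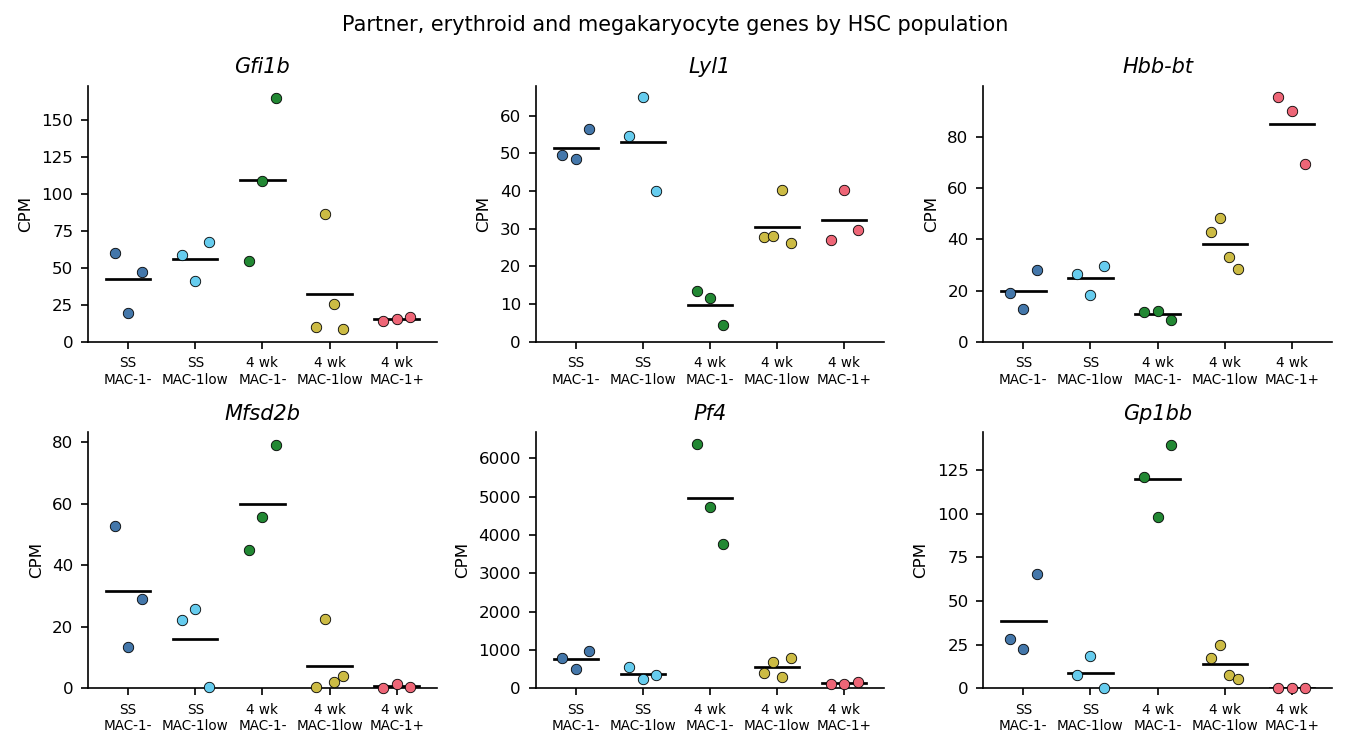
Level in CPM (linear axes from 0) of 6 genes of the lists in every sample, by population; points are samples and black lines are means. Gfi1b, Mfsd2b, Pf4 and Gp1bb have their lowest mean in 4 week MAC-1+ HSCs, while Hbb-bt is highest in each MAC-1+ sample, at 69.6 to 95.6 CPM, and Lyl1 is lowest in 4 week MAC-1-.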

How the data were processed

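HSC RNA was amplified with SMART-Seq v4, a full-length method without molecular identifiers, so intervals and floors cover counting error only. The authors deposited 1 table of whole-number counts per gene, made with an nf-core pipeline and STAR. For the counter, the build and the annotation, nothing is given in the sources used here. Samples were grouped, and columns matched, by the labels. Symbols came from the table, and coordinates and exon lengths from GENCODE M21 (GRCm38), which held 45229 of the 46078 identifiers. Totals were 13781278 to 28580658 counts. In edgeR 4.0.16 (R 4.3.3), the 16 samples were fitted together, with 1 mean for each population, TMM factors (0.907 to 1.10) and the default filter on low counts, and compared by the robust quasi-likelihood test. All 9 factors passed the filter. Adjusted p are Benjamini-Hochberg values over the 13661 genes tested, and a call is an adjusted p below 0.1. DESeq2 1.42.0 and limma 3.58.1 (voom with sample weights) were alternatives. CPM used the TMM factors, log2 CPM a prior count of 2, and TPM the exon length.

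The code was tested on simulated counts whose spread was set lower than that of these data. That test does not show how the method performs at the spread seen here. The 9 factors, the gene lists and the tests were chosen with earlier results of these data known. From each list, the genes called in a comparison are named, at most 6 by the smallest p. For Gata1 and Gata2 the 5 genes with the highest Pearson r are named. A bound against a population at 0 uses 3 counts per sample. Figures were drawn with matplotlib 3.10.9 in Python 3.11.15.

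Replicate numbers did not mark a shared origin in the labels, so the samples were not treated as pairs. The alternatives were the replicate number as a block, other size factors, no filter or a stricter filter (1 CPM in 6 samples), the populations compared alone, and each sample left out.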

Additional observations from a re-analysis of the deposited data

How the results depend on the processing

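The counts of called factors moved under several alternatives. In 4 week MAC-1+ against MAC-1- HSCs 1 factor was called, Gata1, and 2 (Gata1 and Lmo2) with DESeq2's size factors, with a stricter filter, by DESeq2 and by limma-voom. With the replicate numbers as a block, which drops 4 week MAC-1low replicate 4 for want of a partner, 0 were called (Gata1 adjusted p of 0.111). The samples share only a number: deviations from the population means of samples with the same number had r of -0.0249 to 0.0397 over 30 pairs. Over all genes, 444 were called in that comparison, 327 with the block, 154 with these populations alone, 1605 by DESeq2 and 866 by limma-voom. Of the genes of the lists, the block left 0 of 2 partner factors, 2 of 2 red cell genes and 4 of 6 megakaryocyte genes called there, and 0 of 2 megakaryocyte genes in 4 week MAC-1+ against SS MAC-1low. Leaving out 1 sample gave 0 to 2. The count was 0 without any 1 of the MAC-1+ samples and 2 without SS MAC-1low replicate 3, and without 4 week MAC-1- replicate 2 it was Lmo2 in place of Gata1 (adjusted p of Gata1 from 0.0111 to 0.153). Against SS MAC-1- HSCs, where 1 was called, 0 were by limma-voom, with the block and with these populations alone, and 0 to 1 with 1 sample left out (0 without SS MAC-1- replicate 1 or 2, 4 week MAC-1- replicate 2 or any MAC-1+ sample, and 0.0219 to 0.164 for Gata1). Against SS MAC-1low HSCs, where 0 were called, 1 was without a filter or with a stricter filter and 2 by DESeq2, and 0 to 1 with 1 sample left out (1 without SS MAC-1- replicate 3). The joint test called 1 without a filter, 2 by DESeq2 and 0 to 1 with 1 sample left out (1 without SS MAC-1- replicate 3), and was not run on fewer populations. DESeq2 also called 1 factor in 4 week MAC-1+ against MAC-1low (Gata1) and 1 in 4 week MAC-1- against SS MAC-1low (Klf1). In 4 week MAC-1+ against MAC-1-, the log2 difference of Runx1 changed sign with the replicate block (-0.040) and ran from -0.13 to 0.45 with 1 sample left out, and that of Tal1 ran from -0.067 to 0.17. The causes of these changes were not tested. Of the other values for single factors, 319 kept their direction and side of the threshold with 1 sample left out, and 130 under the other alternatives. For the called genes of the lists these numbers were 264 and 124, with 104 and 36 that lost their call and none that changed sign. The spread between samples was large, with a common biological coefficient of variation of 1.13 in edgeR.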

Other observations

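Rhd and Ermap, red cell genes that the filter on low counts left out, were picked out with their values in view. Rhd, the gene of a Rh blood group protein, had 322 counts in 4 week MAC-1+ replicate 1 and at most 1 elsewhere, and Ermap, an erythroid membrane protein gene, had 228 counts there, 26 in 4 week MAC-1+ replicate 3 and at most 4 elsewhere. 4 week MAC-1+ replicate 1 had 0 counts of Gata1 and of Klf1. No comparison of Rhd or Ermap was tested.

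No sample of 4 week MAC-1low, the only population with 4 samples, stood apart from the others by Dixon's criterion in any of the 9 factors.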
